A study of Mus musculus with 30 samples.

Results

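Lox, Col6a3 and Naalad2 were examined in microglia sorted from mice with experimental autoimmune encephalomyelitis (EAE), an immune-mediated demyelinating disease used as a model of multiple sclerosis. The 3 genes, of 46078 in the count table, were chosen because the change from naive to EAE was smaller in Atg7 knockout (KO) or old microglia than in wild type (WT) microglia. The choice used the naive and EAE counts of all 8 groups, so the levels and changes of the 3 genes are given here as descriptions, without tests. Atg7 encodes an enzyme of autophagosome formation. In the KO mice, Atg7fl/fl Cx3cr1CreERT, tamoxifen activates a Cre recombinase driven by the Cx3cr1 promoter, which is active in microglia and other macrophages. The young WT mice were Atg7wt/wt Cx3cr1CreERT2 and so carried the Cre as well, and both were given tamoxifen. The old mice carried the wild type knockout status label, but the labels do not say whether they carried the Cre. All mice were C57BL/6, and EAE was induced with recombinant mouse myelin oligodendrocyte glycoprotein and pertussis toxin. Ages are given only as young or old.

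There were 4 naive libraries of each of WT, KO and old. EAE day 21 was represented by 3 WT and 4 KO libraries, and EAE day 35 by 4 WT, 4 KO and 3 old ones. Cells were live CD11b+ CD45 intermediate Ly6G- and/or eYFP+, pooled in equal parts from both sexes. The labels do not say that replicates came from separate cultures or animals, so p-values measure the spread between these samples, which may be technical. Each library held between 4712803 and 11034565 counts. The 10 microglia markers had counts in all 30 libraries, with Csf1r at a mean of 6278 CPM (read counts scaled to an equal library size). One library of the day 35 WT group, replicate 3, carries a KO status label and a WT title, and it was kept as WT. Gene-level Atg7 was 31.6 ± 6.32 CPM in naive WT and 20.2 ± 8.62 CPM in naive KO (SD, n = 4 each), and 23.2 ± 3.02 CPM in day 21 WT (n = 3) against 32.8 ± 2.73 CPM in day 21 KO (n = 4). A gene-level count cannot show the loss of single exons, so it does not check the KO label. Replicate 1 of the day 35 old group stood apart, with a neutrophil marker sum of 32148 CPM and a microglia marker sum of 9340 CPM.

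Lysyl oxidase, the product of Lox, is a secreted copper enzyme that oxidises lysines of collagen and elastin, the first step in cross-linking the extracellular matrix. Col6a3 encodes the alpha 3 chain of collagen VI, which assembles with the alpha 1 and alpha 2 chains into beaded microfilaments around cells. Naalad2 encodes a membrane-bound glutamate carboxypeptidase related to Folh1, the enzyme that cleaves the neuropeptide N-acetylaspartylglutamate (NAAG) into N-acetylaspartate and glutamate. Fibroblasts and mural cells are the usual sources of collagen VI and lysyl oxidase.

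In the GENCODE M21 annotation of GRCm38, Col6a3 (ENSMUSG00000048126) is on chromosome 1 from 90765923 to 90843971, and Naalad2 (ENSMUSG00000043943) is on chromosome 9 from 18321951 to 18402995. Both are protein-coding genes of the minus strand. Promoter sequences from RefSeq (GRCm38.p6) were matched for 2 of the 3 genes, Col6a3 and Naalad2. The 250 bases before 1 listed start of each are shown because these genes, chosen for their changes, had similar profiles over the 8 groups. For Naalad2 this start, at 18386036, lies inside the gene, whose 5′ end is at 18402995. A second listed start of Naalad2, at 18397538, lies further upstream. Its window is not shown and held none of the motifs named below. The Col6a3 window is chr1:90843972-90844221 and the Naalad2 window is chr9:18386037-18386286, both on the minus strand and written 5′ to 3′, with capitals for GAGGAA, a core sequence of the myeloid factor PU.1.
Col6a3: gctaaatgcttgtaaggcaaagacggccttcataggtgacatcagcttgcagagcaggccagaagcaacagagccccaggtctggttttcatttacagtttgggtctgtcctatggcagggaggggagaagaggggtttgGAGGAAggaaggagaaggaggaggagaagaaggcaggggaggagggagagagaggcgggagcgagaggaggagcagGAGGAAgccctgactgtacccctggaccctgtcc
Naalad2: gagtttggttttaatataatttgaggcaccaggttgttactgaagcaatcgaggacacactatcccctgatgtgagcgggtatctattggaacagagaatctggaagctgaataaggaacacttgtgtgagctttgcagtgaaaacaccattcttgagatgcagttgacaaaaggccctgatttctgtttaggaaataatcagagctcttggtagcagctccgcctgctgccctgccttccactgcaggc
The Col6a3 window held GAGGAA at bases -110 to -105 and -34 to -29, counted from the start site, and GC made up 57.2% of it. The Naalad2 window, at 46.0% GC, held no GAGGAA on either strand. Of 32851 windows of the same length in the table, 23.3% held the motif on either strand, and their median GC share was 52.4%. A search of both strands for the TATA box letters TATAAA, the letters of the AP-1 site, which are TGANTCA, the NF-kappaB motif and the SMAD-binding core with the letters CAGACA found none of them in either window. These motifs occurred in 12.4%, 6.7%, 0.4% and 17.1% of all windows.

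All 3 genes had their highest group mean in naive old microglia and their lowest in day 21 KO microglia. The ratio of these means was 29.4 for Lox, 5.38 for Col6a3 and 6.52 for Naalad2. All 4 naive old libraries lay above the other 26 libraries for each of the 3 genes, which was so for 0.958% of the 13880 genes that passed the count filter. All 4 day 21 KO libraries lay below the other 26 for Col6a3 and Naalad2 but not for Lox, against 2.82% of genes. All 3 genes passed the filter. By mean CPM, Lox stood at the 33rd percentile of these genes, Col6a3 at the 72.5th and Naalad2 at the 77.9th. Per kb of exon, group means ran from 0.161 to 4.72 CPM for Lox, from 1.54 to 8.29 CPM for Col6a3 and from 4.11 to 26.8 CPM for Naalad2, so that per length Naalad2 was the most abundant in each group.

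**Figure D1:**
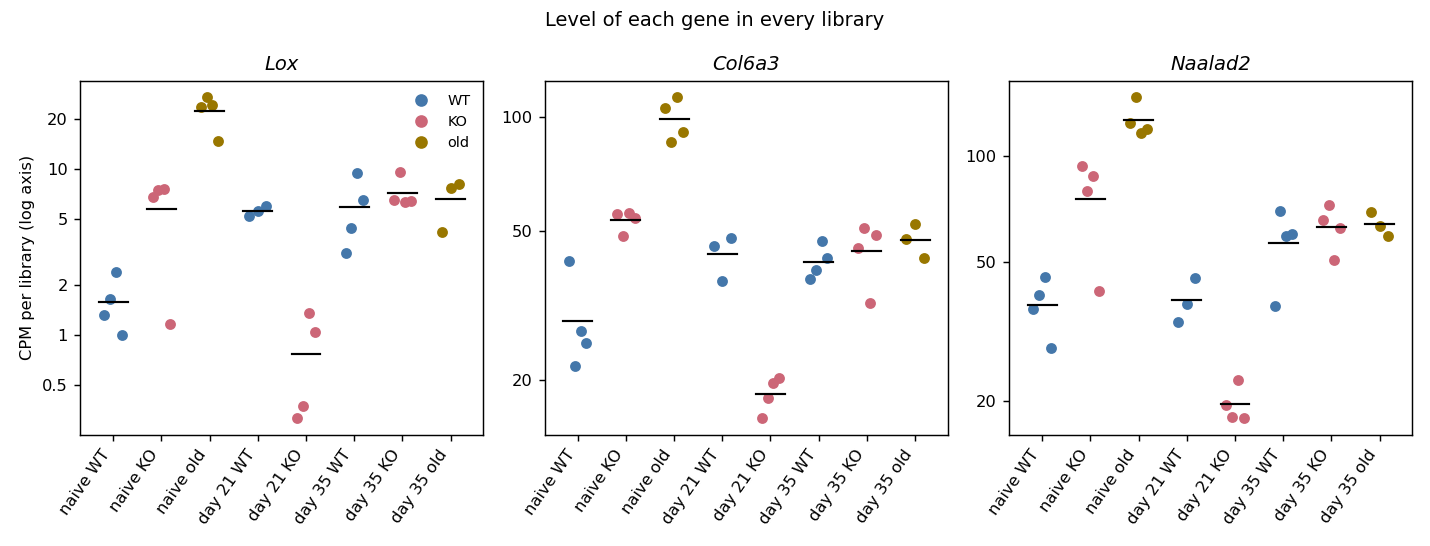
CPM of Lox, Col6a3 and Naalad2 in each of the 30 libraries, on a log axis, with a black line at each group mean. The naive old libraries are the highest for all 3 genes, and the day 21 KO libraries are the lowest for Col6a3 and Naalad2.

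Lox was scarce in naive WT microglia and more abundant in naive old microglia. The naive WT libraries measured 1.32, 1.64, 2.39 and 0.998 CPM of Lox. The naive KO libraries measured 6.82, 7.54, 7.59 and 1.17 CPM. Replicate 4 of naive KO fell inside the WT range, so the groups overlapped, while the other 3 KO libraries lay above it. Libraries of naive old microglia held 23.9, 27.3, 24.3 and 14.9 CPM of Lox, all above both young naive groups. Every old library lay above every WT library in the naive state for 6.97% of genes. The log2 difference in Lox from naive WT was 1.87 (SE 0.44) in naive KO and 3.82 (SE 0.43) in naive old.

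At day 21 of EAE, WT libraries held 5.19, 5.56 and 5.98 CPM of Lox and KO libraries 0.314, 0.371, 1.35 and 1.04 CPM. The 4 KO libraries, which held 20 Lox counts in all, lay below the 3 WT libraries. Every day 21 KO library lay below every day 21 WT library for 18.2% of genes. Against their own naive group, the log2 change in Lox was 1.81 (SE 0.46) in WT and -2.86 (SE 0.48) in KO. Every WT library was higher at day 21 than in the naive state for Lox, as for 17.8% of genes, whereas for KO the naive and day 21 ranges of Lox overlapped through naive replicate 4.

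By day 35 the Lox libraries of the 3 groups shared 1 range. The WT libraries held 3.15, 4.41, 9.55 and 6.49 CPM, the KO libraries 6.54, 9.58, 6.34 and 6.45 CPM, and the old libraries 4.18, 7.68 and 8.11 CPM. The groups overlapped, but their naive starting levels did not lie together, and the log2 changes from naive differed in size and sign. The change was 1.88 (SE 0.44) in WT, 0.31 (SE 0.37) in KO and -1.75 (SE 0.41) in old microglia. Every WT library was higher at day 35 than when naive for Lox, as for 8.78% of genes, and every old library was lower, as for 9.39% of genes. The KO change depended on naive replicate 4, and was -0.02 without it. The value of 9.55 CPM in WT came from the library with conflicting labels, and without it the WT change was 1.56.

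Col6a3 separated the young naive groups more clearly than Lox. Naive WT libraries held 41.5, 21.8, 27.1 and 25.1 CPM of Col6a3. Naive KO libraries held 55.2, 48.4, 55.6 and 54.0 CPM. In naive old microglia the libraries held 106, 86.1, 113 and 91.6 CPM. The 3 naive groups did not overlap, with WT lowest and old highest. Every naive KO library lay above every naive WT library for 3.05% of genes. The log2 difference in Col6a3 from naive WT was 0.88 (SE 0.15) in KO and 1.77 (SE 0.15) in old microglia.

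At day 21 the WT libraries held 45.6, 36.8 and 47.7 CPM of Col6a3, overlapping the naive WT range through its highest library. The KO libraries held 15.9, 18.0, 19.7 and 20.3 CPM, below all naive KO and all day 21 WT libraries. Between naive and day 21, every KO library was lower for 21.4% of genes. The log2 change in Col6a3 was 0.58 (SE 0.16) in WT and -1.53 (SE 0.16) in KO. The day 21 KO mean, 18.5 ± 1.99 CPM, was also below the naive WT mean of 28.9 ± 8.68 CPM (SD, n = 4 each).

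At day 35 Col6a3 was measured at 37.2, 39.3, 46.8 and 42.3 CPM in WT, at 44.9, 50.9, 32.1 and 48.5 CPM in KO, and at 47.5, 52.2 and 42.3 CPM in old libraries. All 3 ranges overlapped. From naive to day 35, the log2 change in Col6a3 was 0.51 (SE 0.15) in WT, -0.27 (SE 0.15) in KO and -1.07 (SE 0.16) in old microglia. All 3 old libraries were below all 4 naive old libraries, while the naive and day 35 ranges overlapped in WT and in KO.

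Naalad2 followed the same order in the naive state. The naive WT libraries held 36.6, 40.1, 45.0 and 28.2 CPM of Naalad2. The naive KO libraries held 94.0, 79.7, 87.6 and 41.1 CPM, and replicate 4 was again the lowest and inside the WT range. Naive old libraries held 125, 147.8, 117 and 120 CPM, above both young groups. The log2 difference from naive WT was 1.01 (SE 0.20) in KO and 1.77 (SE 0.20) in old microglia.

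At day 21 Naalad2 in WT stood at its naive level, with 33.5, 37.8 and 44.9 CPM, whereas KO libraries held 19.5, 18.0, 22.8 and 17.8 CPM. The KO libraries lay below all day 21 WT and all naive KO libraries. The log2 change from naive was 0.05 (SE 0.21) in WT and -1.95 (SE 0.20) in KO. Unlike Lox and Col6a3, Naalad2 in WT had its higher values at day 35 only, when the WT libraries held 37.3, 69.8, 59.0 and 60.04 CPM. Its log2 difference between day 35 and day 21 in WT was 0.54 (SE 0.21), against 0.07 (SE 0.41) for Lox and -0.07 (SE 0.16) for Col6a3. At day 35 the KO libraries held 65.7, 72.8, 50.6 and 62.3 CPM of Naalad2, and the old libraries 69.2, 63.2 and 59.3 CPM. All 3 groups overlapped at day 35. The change from naive to day 35 was 0.59 (SE 0.20) in WT, -0.27 (SE 0.19) in KO and -0.995 (SE 0.21) in old microglia.

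**Figure D2:**
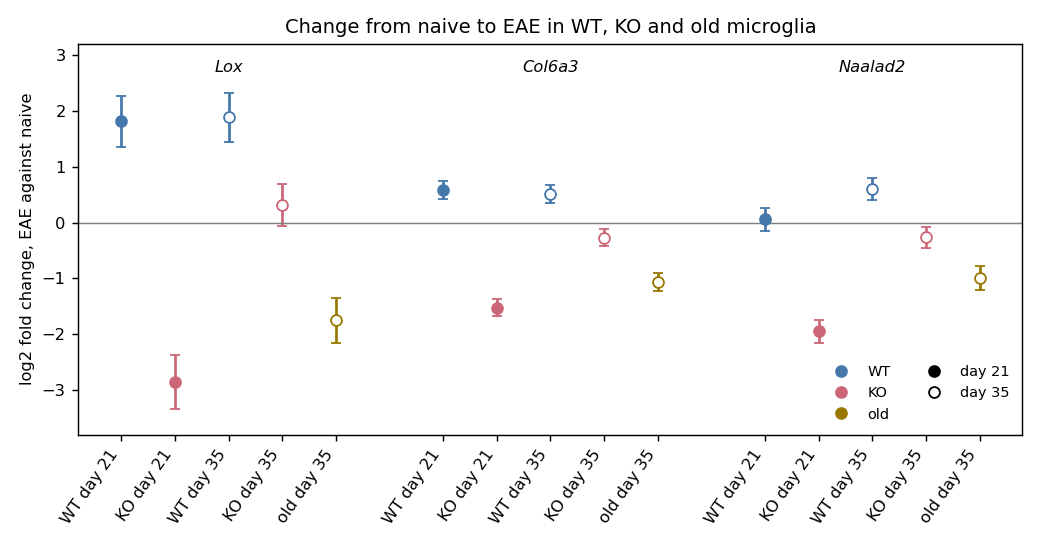
Log2 fold change from naive to EAE of Lox, Col6a3 and Naalad2 in WT, KO and old microglia, with bars of 1 standard error, filled points for day 21 and open points for day 35. At day 21 the KO points lie between -2.86 and -1.53 and the WT points between 0.05 and 1.81, and at day 35 the old points lie between -1.75 and -0.995.

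The difference between the KO and the WT change was, for Lox, Col6a3 and Naalad2 in turn, -4.67 (SE 0.67), -2.11 (SE 0.23) and -2.01 (SE 0.29) on the log2 scale at day 21. At day 35 it was -1.58 (SE 0.58), -0.78 (SE 0.21) and -0.86 (SE 0.27). The difference between the old and the WT change at day 35 was -3.64 (SE 0.60), -1.58 (SE 0.22) and -1.59 (SE 0.29). These differences share the naive WT libraries, and the last pair of comparisons shares the day 35 WT libraries too. They are the values by which the genes were chosen. The background is given as the share of 13880 genes past an adjusted p of 0.05 in edgeR with Benjamini-Hochberg adjustment, and nothing is read from the place of the 3 genes in it, which their choice fixed. The old difference was called for 6 genes, 0.0432% in both directions together, and leaving out 1 library moved that count between 3 (without naive old replicate 1) and 347 (without day 35 old replicate 3). The 0.0216% called lower were Lox, Col6a3 and Naalad2 themselves, so this share is no background for them and no test of them. Clec1a at -3.56 was the first outside the threshold. The day 21 KO difference was called for 9.68% of genes, with Gtf2a1 at -0.41 just inside and Mras at -0.86 just outside among the 4.96% of genes called lower. The day 35 KO difference was called for 0.367% of genes, and 18 genes were called lower (0.13% of genes), with Madd at -0.56 just inside and Bicd2 at -0.58 just outside.

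The difference in change is the KO or old minus WT difference in EAE less that in naive microglia, and the shares of these terms were unlike at the 2 days. At day 35 the KO minus WT difference was 0.29 (SE 0.38) for Lox, 0.09 (SE 0.15) for Col6a3 and 0.15 (SE 0.19) for Naalad2. The old minus WT difference at day 35 was 0.18 (SE 0.41) for Lox, 0.19 (SE 0.16) for Col6a3 and 0.18 (SE 0.21) for Naalad2. These day 35 differences were small beside the naive ones, which were 0.88 to 3.82 over the 3 genes in KO and old microglia. At day 21, by contrast, the KO minus WT difference was itself -2.80 (SE 0.50) for Lox, -1.23 (SE 0.17) for Col6a3 and -0.99 (SE 0.22) for Naalad2. In KO microglia every day 35 library lay above every day 21 library for all 3 genes, against 13.4% of genes, with log2 differences of 3.17 (SE 0.48) for Lox, 1.25 (SE 0.16) for Col6a3 and 1.68 (SE 0.20) for Naalad2.

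Ordered by group mean, Lox ran from 22.6 ± 5.36 CPM in naive old through 7.23 ± 1.57 in day 35 KO, 6.66 ± 2.15 in day 35 old, 5.90 ± 2.80 in day 35 WT, 5.78 ± 3.09 in naive KO and 5.58 ± 0.396 in day 21 WT to 1.59 ± 0.597 in naive WT and 0.769 ± 0.509 in day 21 KO. Of the neighbours in that order, only naive old and day 35 KO, and day 21 WT and naive WT, did not overlap. Col6a3 ran from 99.2 ± 12.5 CPM in naive old through 53.3 ± 3.32 in naive KO, 47.3 ± 4.95 in day 35 old, 44.1 ± 8.38 in day 35 KO, 43.3 ± 5.80 in day 21 WT and 41.4 ± 4.18 in day 35 WT to 28.9 ± 8.68 in naive WT and 18.5 ± 1.99 in day 21 KO. Naalad2 ran from 127.4 ± 14.0 CPM in naive old through 75.6 ± 23.7 in naive KO, 63.9 ± 4.96 in day 35 old, 62.8 ± 9.27 in day 35 KO, 56.6 ± 13.7 in day 35 WT and 38.7 ± 5.75 in day 21 WT to 37.5 ± 7.07 in naive WT and 19.5 ± 2.34 in day 21 KO. For Col6a3 and Naalad2 the neighbours that did not overlap were the first and the last pair of the order. Errors are SD over 4 libraries, or 3 for day 21 WT and day 35 old. By sign alone, Col6a3 and Naalad2 were higher in both WT comparisons and lower in both KO comparisons and the old one, a pattern of 2.57% of genes. Lox was not in that set because its KO value at day 35 was above 0.

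The summed level of microglia markers differed between groups, and in sorted bulk samples fewer microglia and less RNA of these genes per cell cannot be told apart. The summed level of the 10 microglia markers was 28076 ± 4761 CPM in naive WT, 26070 ± 711 in naive KO and 25989 ± 1420 in naive old (SD, n = 4 each). At day 21 it was 19613 ± 1461 CPM in WT (n = 3) and 10217 ± 311 in KO (n = 4), and at day 35 it was 21059 ± 4138 in WT, 17234 ± 2939 in KO and 17034 ± 7264 in old (n = 4, 4 and 3). All 10 markers were tested, and 9 fell and none rose in KO at day 21 against naive (edgeR, adjusted p under 0.05). Of all genes 45.2% were called there. The day 21 change was lower in KO than in WT for 7 and higher for 1, where 9.68% of all genes were called. Over all 15 marker lists, 26 genes were called for this difference, and 5 without day 21 WT replicate 3. Monocyte markers summed to 2202 to 3036 CPM in the day 21 KO libraries and 176 to 493 CPM in the day 21 WT libraries, and the day 21 change of 7 of 10 was higher in KO than in WT in edgeR's interaction test. In KO 1 of the 10, Fn1, rose and none fell at day 21 (45.2% of all genes called). In WT none rose and 6 fell (21.5% of all genes called). Fn1 had a mean of 698 CPM over the 30 libraries and Chil3, the next, 153 CPM, so much of the monocyte sums may be Fn1. Neutrophil markers summed to 482 to 604 CPM in day 21 KO and 699 to 725 CPM in day 21 WT, to 637 to 3058 CPM in naive KO, to 2007 to 16750 CPM in naive WT and to 7401 to 13642 CPM in naive old. Of these 11 markers, Csf3r alone had a mean of 549 CPM over the 30 libraries, so sums near that level may hold little of the others. By gene, 10 fell and 1 rose in WT at day 21, and 10 fell and none rose in KO. The median difference of the KO from the WT change was 3.84, unlike the order of the day 21 sums. In naive KO replicate 4, the low library for Lox and Naalad2, the neutrophil sum of 637 CPM and the monocyte sum of 35.5 CPM were the lowest of the naive KO group. Endothelial markers summed to 134.5 ± 39.1 CPM in naive old (SD, n = 4), against group means of 57.3 to 87.9 CPM elsewhere. Every naive old library, at 98.2 CPM or more, lay above all libraries of the other groups, which reached 91.5 CPM. This naive old order was also that of Lox, Col6a3 and Naalad2. The endothelial mean of day 21 KO, 60.8 CPM, was not the lowest, unlike for those genes. Of the endothelial markers, Flt1, Pecam1 and Kdr had means of 28.2, 24.3 and 17.9 CPM over the 30 libraries. The others had means of at most 3.57 CPM, with Cldn5 at 9 counts and Esam at 25 in all, so the endothelial sums may hold little of them. The part of these other cells in the levels of Lox, Col6a3 and Naalad2 was not tested. Fibroblast markers summed to group means of 2.25 to 11.2 CPM, with Dcn at 18 counts, Lum at 8 and Ogn at 15 over all 30 libraries, and 1 to 9 of the 10 markers were at 0 in each library. Pericyte and smooth muscle markers summed to group means of 2.40 to 7.71 CPM, with 1 to 7 of 10 at 0 in each library. The means of Col6a3 and Naalad2 were above both of these sums in every group, while the mean of Lox was below the fibroblast sum in naive WT (1.59 against 11.2 CPM), naive KO (5.78 against 10.5 CPM) and day 21 KO (0.769 against 2.34 CPM), and below the pericyte and smooth muscle sum in naive WT and day 21 KO (7.71 and 2.40 CPM). EAE scores were 2 to 3 in day 21 WT, 2.75 to 3 in day 21 KO, 1 to 1.5 in day 35 WT, 2.5 to 3 in day 35 KO and 2.75 to 3 in day 35 old, so at day 35 score and group cannot be told apart. Mitochondrial counts made up 8.35% to 9.12% of day 21 KO libraries and 6.41% to 8.26% of day 21 WT libraries.

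Set against the microglia markers, the naive order of the 3 genes stayed and the day 21 gap narrowed. The scale, chosen after the data were seen, was CPM per 10000 CPM of 9 microglia markers, leaving out Cx3cr1, whose locus carries the Cre. On it Col6a3 was 11.4 ± 3.15 in naive WT, 20.6 ± 1.36 in naive KO and 45.8 ± 7.09 in naive old (SD, n = 4 each). Naalad2 was 15.2 ± 5.04, 29.3 ± 9.63 and 58.5 ± 4.34 in the same groups, and Lox was 0.659 ± 0.364, 2.25 ± 1.21 and 10.3 ± 2.23. At day 21 Col6a3 was 23.0 ± 3.27 in WT and 18.6 ± 1.71 in KO, and Naalad2 was 20.4 ± 1.28 in WT and 19.7 ± 1.90 in KO, with overlapping libraries for both genes. Lox on this scale was 2.95 ± 0.0426 in day 21 WT and 0.766 ± 0.490 in day 21 KO, and the groups did not overlap. The log2 difference between KO and WT at day 21 was thus -0.31 for Col6a3, -0.05 for Naalad2 and -1.95 for Lox. In day 35 old microglia the 3 libraries measured 59.1, 22.7 and 24.9 for Col6a3 and 86.2, 27.5 and 34.96 for Naalad2. The highest value of each was from replicate 1, the library with the high neutrophil sum.

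**Figure D3:**
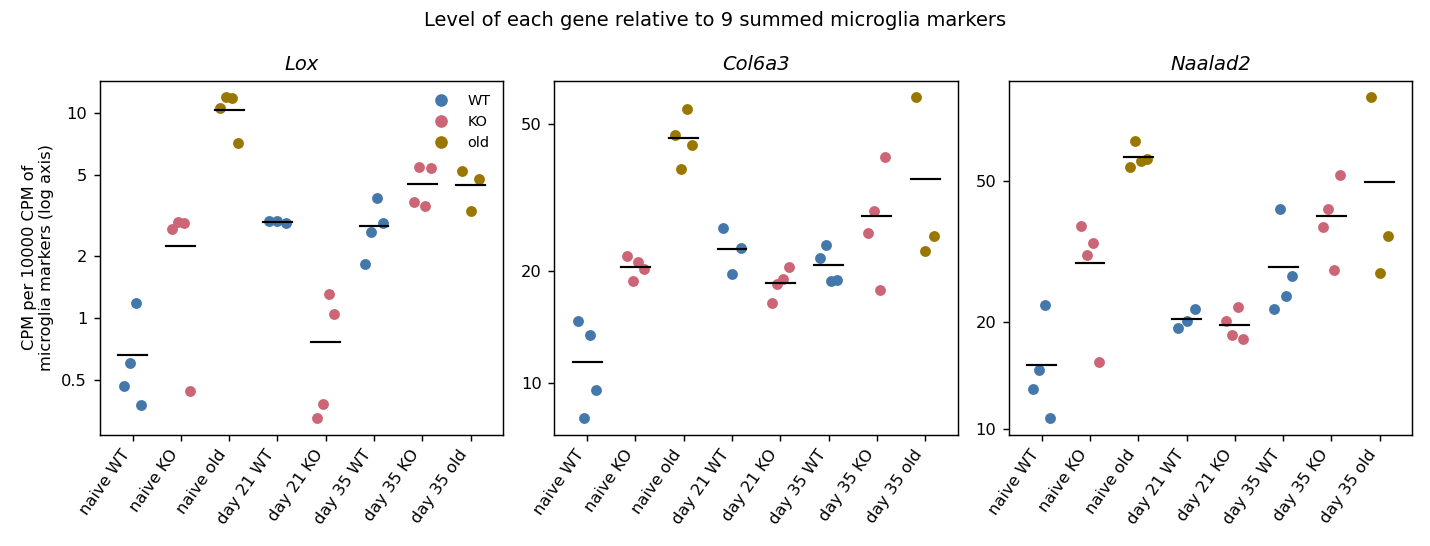
Lox, Col6a3 and Naalad2 in each library as CPM per 10000 CPM of 9 summed microglia markers, on a log axis, with a black line at each group mean. The day 21 WT and KO libraries overlap for Col6a3 and Naalad2 but not for Lox, and the naive old libraries are above both young naive groups for all 3 genes.

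The closest relatives of the 3 genes had other levels or other patterns. Of the lysyl oxidase family, Loxl3 was the other member with counts enough for testing, at 3.33 to 7.22 CPM per kb over the groups, while Loxl1, Loxl2 and Loxl4 had group means of at most 0.30 CPM. Loxl3 had nearly equal means in the naive groups, 15.6 ± 3.58 CPM in WT, 15.6 ± 1.27 in KO and 15.3 ± 2.81 in old (SD, n = 4 each), where Lox differed most. Loxl3 rose in all 5 comparisons of EAE with naive, by 1.07 on the log2 scale in WT at day 21 (adjusted p 6.8e-05) and by 0.52 in old microglia (adjusted p 0.0397). Of 30 fits that left out 1 library each, 4 lost the call of Loxl3 in KO at day 21 and 5 lost that in old microglia. Its change in KO at day 21 was 0.65 lower than in WT, which missed the threshold (edgeR, adjusted p 0.081). The partner chains that collagen VI microfilaments are built with were near the limit of detection, with group means of 0.0583 to 0.538 CPM for Col6a1 and 0 to 0.315 CPM for Col6a2. Col6a4, Col6a5 and Col6a6 had group means of at most 0.154 CPM. Folh1, the relative of Naalad2 that cleaves NAAG, had group means of 0 to 0.302 CPM, Naaladl1 0.0391 to 0.728 CPM and Naaladl2 at most 0.0364 CPM.

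**Figure D4:**
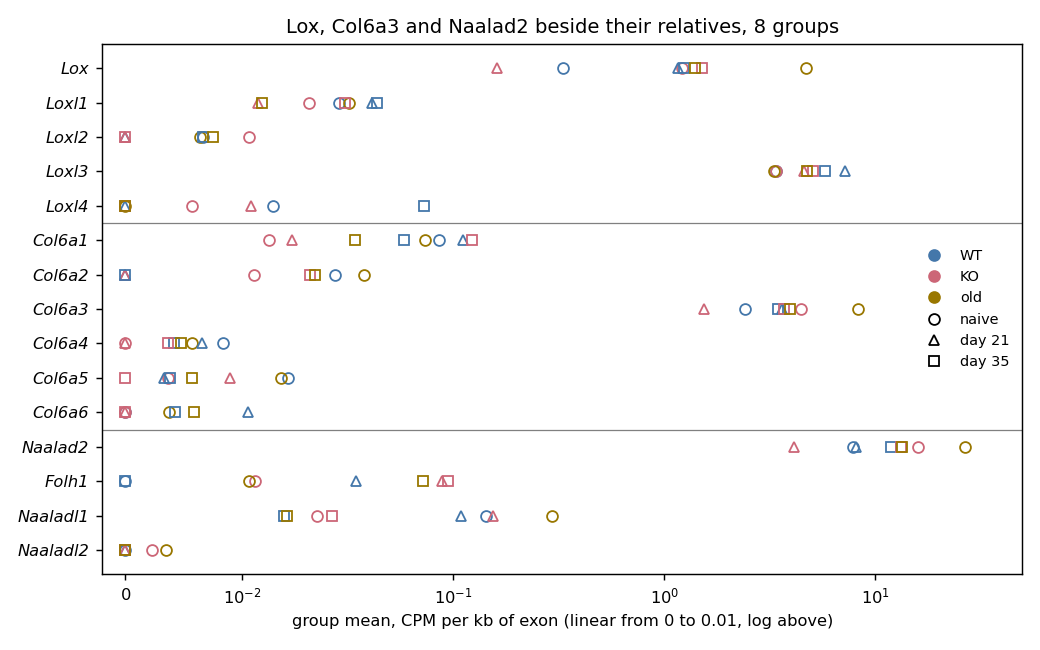
Group means of Lox, Col6a3, Naalad2 and their relatives in CPM per kb of exon, with colours for WT, KO and old and symbols for naive, day 21 and day 35. The axis is linear from 0 to 0.01 and logarithmic above. Loxl3, at 3.33 to 7.22, is the relative whose level comes closest to the 3 genes.

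Genes of the same pathways were read from 6 lists, of which 57 genes beside the 3 passed the count filter. The tests were edgeR quasi-likelihood tests with Benjamini-Hochberg adjustment over all 13880 genes. The difference between the KO and WT changes at day 21 was called for 11 of the 57, with 2 higher and 9 lower, or 19.3% against 9.68% of all genes. The 11 became 6 without day 21 WT replicate 3 and 19 without day 35 old replicate 1. The median of this difference was -0.21 over the 57 genes and 0.01 over all genes tested. In KO at day 21 against naive, 9 of the 57 rose and 21 fell, where 45.2% of all genes were called. In WT at day 21, 9 rose and 7 fell (21.5% of all genes called), and in WT at day 35, 7 rose and 3 fell (19.1% of all genes called). In KO at day 35, 10 rose and 9 fell (21.4% of all genes called), and in old microglia 5 rose and 5 fell (18.4% of all genes called). None of the 57 was called in edgeR for the day 35 difference of KO or of old from WT. For KO, 13 had an unadjusted p under 0.05 and DESeq2 called 4, and edgeR called 5 without day 35 old replicate 1. For old, 3 had an unadjusted p under 0.05 and DESeq2 called 0.

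Among partners and relatives of Lox, 6 of 15 were tested, and 3 rose and 1 fell in KO at day 21 (45.2% of all genes called). Fn1, fibronectin, a matrix protein that binds lysyl oxidase, rose by 3.68 in KO at day 21 (SE 0.80, adjusted p 0.000673) and by 2.62 in KO at day 35 (adjusted p 0.0177). Fn1 is also the most abundant gene of the monocyte marker list, and the part of monocytes in its change was not tested. Postn, periostin, fell by 1.36 in WT at day 21, by 0.94 in KO at day 21 and by 1.38 in old microglia at day 35. Its day 21 calls were lost in 2 of 30 fits that left out 1 library for WT and in 5 for KO. Efemp2, an elastic fibre protein that binds lysyl oxidase, rose by 0.74 in KO at day 21 and by 0.85 in KO at day 35. None of the 6 differed between KO or old and WT in its change, and the edgeR count of 0 stood beside adjusted p-values of 0.0509 for Fn1 and 0.081 for Loxl3 at day 21.

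Of 13 collagen VI chains and partners 4 were tested, and 1 rose in KO at day 21 (45.2% of all genes called). That gene, Mmp14, which encodes a membrane-bound matrix metalloproteinase, rose by 1.62 (SE 0.17, adjusted p 3.07e-08), and it rose by 1.07 in WT at day 21 and by 0.75 in WT at day 35. Antxr2, which encodes a cell surface receptor that binds collagens, fell by 1.78 in WT at day 21 and by 2.06 at day 35. Its day 21 call was lost in 4 of 30 fits that left out 1 library each. Cspg4, the NG2 proteoglycan and a collagen VI ligand, rose by 2.81 in KO at day 35 (adjusted p 0.00433). Vwa1, which encodes a matrix protein, passed in no comparison, and its lowest adjusted p, 0.0771, was that of its change in old microglia.

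Of 16 other collagens 6 were tested, and 1 rose and 2 fell in KO at day 21 (45.2% of all genes called). Col27a1, a fibrillar collagen gene, had a day 21 change of -1.13 in KO (adjusted p 3.34e-05) and 0.16 in WT (adjusted p 0.619), a difference of -1.29 (SE 0.28, adjusted p 0.00633). Its naive levels had another order than those of Col6a3, at 391 ± 77.4 CPM in WT, 481 ± 63.1 in KO and 269 ± 53.7 in old (SD, n = 4 each). Col15a1 fell by 0.72 in KO at day 21. Col4a2, a basement membrane collagen gene, differed in the other direction, by 4.89 (SE 1.30, adjusted p 0.0189), on few counts, with 4 in naive KO and 28 in day 21 KO over 4 libraries each, and it was not called without day 21 WT replicate 3.

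Enzymes that modify collagen chains in the endoplasmic reticulum were represented by 13 tested genes of 18. In KO at day 21, 8 of these fell and none rose (45.2% of all genes called). P3h2, a prolyl 3-hydroxylase gene, fell by 1.79 in KO at day 21 (SE 0.20, adjusted p 1.27e-07), and by 1.23 more than in WT (SE 0.29, adjusted p 0.0106). P3h3, of the same family, rose by 0.91 in WT and fell by 0.69 in KO at day 21, a difference of -1.60 (SE 0.26, adjusted p 0.00053). P4ha1, a subunit of prolyl 4-hydroxylase, fell by 0.52 in WT and by 1.11 in KO at day 21, by 0.77 in KO at day 35 and by 0.64 in old microglia, and its KO and WT changes at day 21 did not differ past the threshold (adjusted p 0.0849). Colgalt1, a collagen galactosyltransferase gene, rose by 0.60 in WT at day 21, and its change in KO was lower by 0.50 with an adjusted p of 0.0498 that was lost in 20 of 30 fits that left out 1 library each.

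Of 17 genes of NAAG and glutamate turnover 9 were tested, and 1 rose and 3 fell in KO at day 21 (45.2% of all genes called). Nat8l, the synthase of N-acetylaspartate, fell by 0.68, and its difference from WT was -0.87 (SE 0.26, adjusted p 0.0355), a call lost without any one of naive KO replicates 2 and 3, naive WT replicate 2, day 21 KO replicates 2 and 3, or day 21 WT replicates 2 and 3. Glul, glutamine synthetase, fell by 1.21 in KO and by 0.47 in WT at day 21, a difference of -0.74 (SE 0.20, adjusted p 0.0207), lost without naive WT replicate 3, day 21 WT replicate 2 or day 21 WT replicate 3. Cpq, which encodes a secreted carboxypeptidase, rose by 1.27 in WT at day 21 (adjusted p 0.00262).

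Transforming growth factor beta is a known inducer of matrix genes. Of the 22 genes in its list 19 were tested, and 3 rose and 7 fell in KO at day 21 (45.2% of all genes called). Tgfbr1, a receptor subunit, fell by 1.46 in KO (SE 0.15, adjusted p 8.21e-09) and by 0.51 in WT, a difference of -0.95 (SE 0.22, adjusted p 0.0077). Smad3, which carries the receptor signal to the nucleus, fell by 1.11 in KO and its difference from WT was -0.93 (SE 0.19, adjusted p 0.0042). The ligand Tgfb1 fell by 0.52 in WT and by 0.95 in KO at day 21, by 0.59 in KO at day 35 and by 0.66 in old microglia. The other 2 genes called for the day 21 difference, named after their values were seen, were Itgb8, an integrin chain that activates the ligand, at -2.34 (adjusted p 0.0339), and Tgfbi, a matrix protein gene, at 3.22 (adjusted p 0.0101). The call of Itgb8 was lost without any one of day 21 KO replicates 2, 3 and 4, naive KO replicate 3, day 21 WT replicates 2 and 3, or naive WT replicate 4. The microglia marker sum of day 21 KO was 10217 CPM against 19613 CPM in day 21 WT, and its part in these lower values was not tested.

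**Figure D5:**
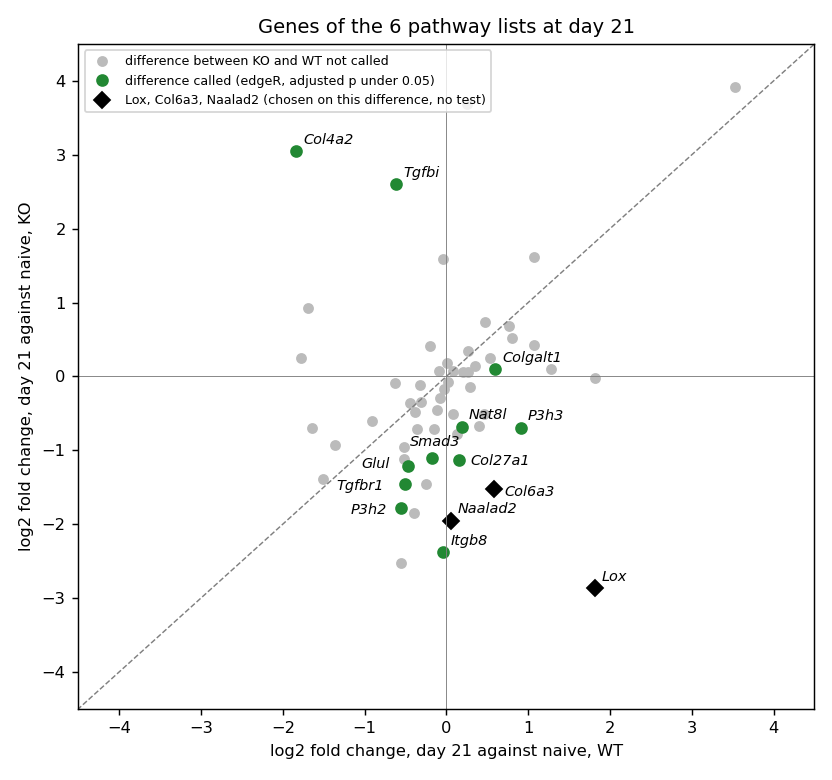
Log2 fold change from naive to day 21 in WT (x axis) and in KO (y axis) for the 57 tested genes of the 6 lists and for Lox, Col6a3 and Naalad2 (black diamonds), with a dashed line of equal change. Green points are the 11 genes whose KO and WT changes differed at an adjusted p under 0.05, of which 9 lie below the line and Col4a2 and Tgfbi above it.

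Over the 30 libraries and 11985 genes, the genes whose log2 CPM was most like each of the 3 included the other members. The 3 genes were chosen for like changes over these same libraries, so their correlations with each other follow in part from the choice. Libraries of 1 group share their condition and cell makeup, so the correlations describe likeness over conditions. For Lox the 6 nearest genes by Pearson r were Naalad2 (0.905), Col6a3 (0.877), Atp6v1c1 (0.871), Wscd1 (0.866), Hspa12a (0.849) and Timp2 (0.848). For Col6a3 they were Hspa12a (0.901), Naalad2 (0.896), Lox, St8sia6 (0.846), Dlg5 (0.845) and Pcdhb22 (0.831). For Naalad2 they were St8sia6 (0.917), Lox, Col6a3, Hspa12a (0.890), Dlg5 (0.880) and Clec1a (0.870). Atp6v1c1 encodes a subunit of the vacuolar proton pump, Timp2 an inhibitor of matrix metalloproteinases and St8sia6 a sialyltransferase. By Spearman rho, 3 of the 6 were kept for Lox, 3 for Col6a3 and 5 for Naalad2. Hspa12a, a heat shock protein 70 family gene near to all 3, had a log2 change of -2.10 (SE 0.24) in KO at day 21, 0.43 (SE 0.24) in WT at day 21 and -0.77 (SE 0.24) in old microglia. Wscd1, near to Lox, had changes of 0.69 (SE 0.26) in WT and -1.31 (SE 0.25) in KO at day 21 and -0.64 (SE 0.26) in old microglia.

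Lox (ENSMUSG00000024529) is a protein-coding gene of the minus strand on chromosome 18, from 52516067 to 52529867. Reads of overlapping genes could add to the counts of the 3. Gm36970, which overlaps Col6a3, had 25 counts over the 30 libraries against 9788 of Col6a3. AC161119.1 is antisense to Lox, which had 1464 counts in all, and Gm19174 is antisense to Naalad2, which had 12690. Neither antisense gene has a row in the table used here, and the strand setting of the counting is not given in the sources used here, so reads of each pair cannot be told apart.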

How the data were processed

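RNA of sorted microglia was amplified and sequenced using a SMARTer stranded kit for low-input total RNA, per the labels' protocols. CASAVA, bcl2fastq, STAR and GRCm38 are named in the submitters' processing notes. The deposited table holds raw read counts per Ensembl gene, and the EAE score and RNA integrity score of each library come from the authors' deposited sample table. Of 32 count columns, 30 were joined to samples through plate wells, whose numbers equalled those in all 30 titles, and 2 were not used. Symbols were matched for 45143 of 46078 genes (98%). Libraries held a median of 6769302 counts.

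Counts were fitted with edgeR 4.0.16 (R 4.3.3): filterByExpr by group (minimum count 10, minimum total 15), TMM factors (0.906 to 1.1), 1 mean for each of 8 groups, quasi-likelihood tests with 22 residual degrees of freedom, and Benjamini-Hochberg adjustment over 13880 genes at 0.05. CPM use the TMM library sizes, likeness uses log2 CPM with a prior count of 2. The scripts were tested on simulated data. Alternatives were RLE size factors, DESeq2 1.42.0, no count filter, moving the library with conflicting labels to KO, the i5 index as a term, and each library left out.

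The members and gene lists were chosen with earlier results of these data known. Named genes are the 3 members, up to 4 of each pathway list with the lowest adjusted p, up to 2 of each marker list by mean CPM, and the 6 genes with the highest Pearson r per member. Some genes that this rule names, and the sequence of Lox, are not reported here.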

Additional observations from a re-analysis of the deposited data

Results flagged for a closer look

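In naive KO microglia, Lox was 1.17 CPM in replicate 4, and the nearest of the other 3 libraries was at 6.82 CPM. The gap was 0.880 of the whole range, above Dixon's 95% critical value for 4 samples. In day 35 KO microglia, Lox was 9.58 CPM in replicate 2, the nearest library was at 6.54 CPM, and the gap was 0.938 of the range. Chance flags about 1 in 20 such sets of values. Of 18 sets tested, 1 for each gene and each group of 4 libraries, 2 were flagged. The genes share their libraries, so the 18 sets are not independent.

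The change from naive to day 21 differed between KO and WT in edgeR's interaction test (adjusted p under 0.05) for 11 pathway genes. The log2 difference was -1.29 for Col27a1, 4.89 for Col4a2, -1.23 for P3h2, -1.60 for P3h3 and -0.50 for Colgalt1. It was -0.74 for Glul, -0.87 for Nat8l, -0.95 for Tgfbr1, -0.93 for Smad3, -2.34 for Itgb8 and 3.22 for Tgfbi.

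For the 3 chosen genes, looked at in 3 comparisons each, 6 changes had opposite signs in every library. Naalad2 in KO at either day and Lox in KO at day 35 were not among them. The share of all genes with such opposite signs was not computed, so the count only describes the chosen genes. In each of these, on the log2 CPM scale, every EAE library of WT lay above the mean of its naive libraries and every one of KO or old lay below. The log2 difference of KO from WT at day 21 was -4.67 for Lox and -2.11 for Col6a3, and at day 35 it was -0.78 for Col6a3. The difference of old from WT at day 35 was -3.64 for Lox, -1.58 for Col6a3 and -1.59 for Naalad2. No test of these differences is given as a result, since the choice of the genes used them.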

How the results depend on the processing

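No paired analysis was possible because the titles give the groups no shared replicate numbers. Under RLE size factors, DESeq2, no count filter, the library moved and the i5 term, and with each of the 30 libraries left out, the log2 changes of Lox, Col6a3 and Naalad2 moved by less than the spread between replicates. Over all alternatives, 1609 of their 1620 values kept their sign and 11 did not. Depth limits Lox most, with 20 counts in the 4 day 21 KO libraries together.

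Set against 9 microglia markers, a scale chosen after seeing the data, 29 of 45 changes moved. In order Lox, Col6a3 and Naalad2, the day 21 change became 2.16, 1.01 and 0.43 in WT and -1.55, -0.15 and -0.58 in KO, and the day 35 change in old became -1.22, -0.37 and -0.24. The day 35 change became 0.86 for Col6a3 in WT, and turned to 0.46 for Col6a3 and 0.44 for Naalad2 in KO. The KO minus WT difference in change was -3.72, -1.16 and -1.003 at day 21, and -0.41 for Col6a3 and -0.47 for Naalad2 at day 35. The old minus WT difference in change was -1.23 for Col6a3 and -1.15 for Naalad2. The KO minus WT level difference was -1.95, -0.31 and -0.053 at day 21, and 0.44 for Col6a3 and 0.48 for Naalad2 at day 35, and the old minus WT level difference was 0.78 and 0.80. Between days 21 and 35 in KO the values were 2.56, 0.60 and 1.01. The lower microglia marker sums in EAE enter these values by construction. The day 35 old values of Col6a3 and Naalad2 on this scale rest much on replicate 1, the library with the high neutrophil sum. It measured 59.1 for Col6a3, against 22.7 and 24.9 in the other old libraries. For Naalad2 it measured 86.2, against 27.5 and 34.96.

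Counts of genes called in the KO difference at day 21 were 845 of all genes (from 1343) and 10 marker genes (from 26) with no count filter, and 16 marker genes with the i5 index as a term. For KO at day 35, DESeq2 called 478 genes in all (from 51), 4 pathway genes (from 0) and 19 marker genes (from 3). That comparison gave 13 genes with the library of conflicting labels moved, and 1 marker gene under that move, with no filter and with the i5 term. For old at day 35, DESeq2 called 240 genes (from 6) and 13 marker genes (from 0; 33 at an unadjusted p under 0.05 in edgeR), and the i5 term gave 10 genes. Beyond the use of other tests or samples, the cause of these shifts was not tested.

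With 1 library left out, calls among all genes ran from 1727 to 3575 in WT at day 21, 1406 to 3247 in WT at day 35, 1597 to 3716 in KO at day 35 and 973 to 3231 in old. For the differences in change they ran from 514 to 2314 for KO at day 21, 7 to 730 for KO at day 35 and 3 to 347 for old. Pathway calls ran from 9 (without day 21 WT replicate 2) to 18 in WT at day 21, 6 (without naive WT replicate 2) to 14 in WT at day 35, 5 (without day 35 old replicate 3) to 15 in old, 6 to 19 for the day 21 difference, 0 to 5 for KO at day 35 and 0 to 1 for old. Marker calls ran from 29 to 56 in KO at day 35, 10 to 39 in old, 5 to 34 for the day 21 difference, 1 to 19 for KO at day 35 and 0 to 14 for old. Named pathway genes kept their call in 1875 of these fits and lost it in 105. The named genes kept all calls with DESeq2 and with RLE size factors, and lost 11 of 66 with no filter, 5 with the library moved and 3 with the i5 term.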
